A study of Mus musculus with 12 samples.

Results

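The comparison described here set the hypothalamus of mice with obesity that received resveratrol (Ob + RSV) against that of untreated mice with obesity (Ob). Its members are 3 libraries per group, 6 of the 12 libraries of the series, and they were chosen by the treatment given for each sample. All mice were male C57BL/6, 8 weeks old at the start, and both groups ate a high-fat diet (HFD) with 60% of its calories from fat. Ob + RSV mice received resveratrol (RSV) at 2.25 mg/kg by oral gavage every day for 28 days from 16 weeks of age, and Ob mice received the vehicle, saline, in the same way. The sources differ on the diet, since the sample descriptions give 8 weeks of HFD in all and also place the first gavage at week 8 of the diet. The model also held 3 libraries of lean controls (C), mice of the same strain and sex on standard diet with vehicle gavage, which share the estimate of the spread. The question of the comparison was whether RSV alters hypothalamic gene expression once obesity has been induced. Poly(A) RNA of the dissected hypothalamus was sequenced as read pairs, for only part of the animals of each group. No replicate was described as pooled, and p-values below measure the spread between these libraries.

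RSV is a polyphenol of grapes and other plants. In liver, muscle and fat it is known for effects on the deacetylase SIRT1, the energy sensor AMPK and the mitochondrial coactivator PGC-1α, and for lowering NF-κB signaling. The hypothalamus holds the neurons that set feeding, water balance, body temperature and the pituitary hormones, together with glia, blood vessels and the ciliated ependymal lining of the third ventricle. In obesity on an HFD it is known for low-grade inflammation. In bulk tissue, fewer cells of a type and less RNA per cell cannot be told apart, which applies to every gene group below.

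The Ob libraries held 19407694, 18181681 and 15655156 counts and the Ob + RSV libraries 26284661, 21764016 and 17006586. Levels are given as CPM, a gene's counts as a share of its library, scaled to the same total in every library. Genes are not independent replicates, and over them Pearson's r of log2(CPM + 1) was 0.978 to 0.988 within Ob, 0.970 to 0.981 within Ob + RSV and 0.965 to 0.990 between the groups. Ob + RSV replicate 2 stood apart in its rare transcripts, because only 7.30% of its 24450 detected genes had fewer than 10 reads, against 23.3% to 39.8% in the other 5 libraries. One gene without a symbol in the reference, ENSMUSG00000119584, took 3.91% of the counts of Ob replicate 2 and 2.78% of those of Ob + RSV replicate 2. It had 11399, 39096 and 1417 CPM in Ob and 9765, 27834 and 1882 CPM in Ob + RSV. The replicates thus had the same order in both groups, whereas C had another order, with 1109, 6491 and 2489 CPM. The tissue markers fitted a hypothalamus, with Oxt, Avp, Hcrt, Pmch, Trh and Nkx2-1 read in all 6 libraries, but Ob + RSV replicate 3 had 0 reads of Nr5a1, the defining factor of the ventromedial nucleus. Its values are taken up again with the peptide genes.

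No gene passed the test. Of 33534 genes with at least 10 reads in total, 0 (0.0%) reached an adjusted p under 0.05 together with a log2FC of 1 or more in size, by edgeR's quasi-likelihood test with Benjamini-Hochberg adjustment. The smallest adjusted p was 1, also with no minimum on the log2FC. DESeq2 called 0 genes as well, on 9 or on 6 libraries. At an unadjusted p under 0.05 stood 1059 genes (3.16%), 555 of them (1.66%) higher and 504 (1.5%) lower in Ob + RSV. A log2FC is the fitted log2 ratio of Ob + RSV to Ob, so that a negative value is lower with RSV. Adding the minimum on the log2FC left 733 genes (2.19%), with 429 higher (1.28%) and 304 lower (0.907%). By limma's voom the split was the other way, with 203 higher and 577 lower genes at a median log2FC of −0.08 over all genes. All 3 Ob + RSV libraries lay above all 3 Ob libraries in CPM for 985 genes (2.94%) and below them for 1256 (3.75%), together 2241 genes (6.68%). Fitted values were above 0 for 49.6% of the genes and below 0 for 49.7%.

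Single libraries carried much of these unadjusted counts. Of the 429 higher genes, Ob + RSV replicate 2 was the highest library of its group in 389 (90.7%) and held over 80% of the group's CPM in 242 (56.4%). Of the 304 lower genes, Ob replicate 1 was the highest Ob library in 178 (58.6%). Without both libraries the counts were 57 higher and 229 lower genes. The typical error depended on the level, with a median SE of the log2FC of 1.88 for genes at 0.1 to 1 CPM, 0.57 at 1 to 10 CPM, 0.24 at 10 to 100 CPM and 0.22 above that. Among the 17612 genes with a mean of at least 1 CPM, 474 (2.69%) had an unadjusted p under 0.05 and 1281 (7.27%) did not overlap between the groups, 657 higher (3.73%) and 624 lower (3.54%). For a single value of 3 against 3 libraries the smallest p of an exact permutation test is 0.1. That is also the share of all orderings of the libraries in which the groups do not overlap. The 6.68% of all genes and the 7.27% at 1 CPM or more were below this share. The 3.16% with an unadjusted p under 0.05 were likewise below the 0.05 of that threshold.

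**Figure D1:**
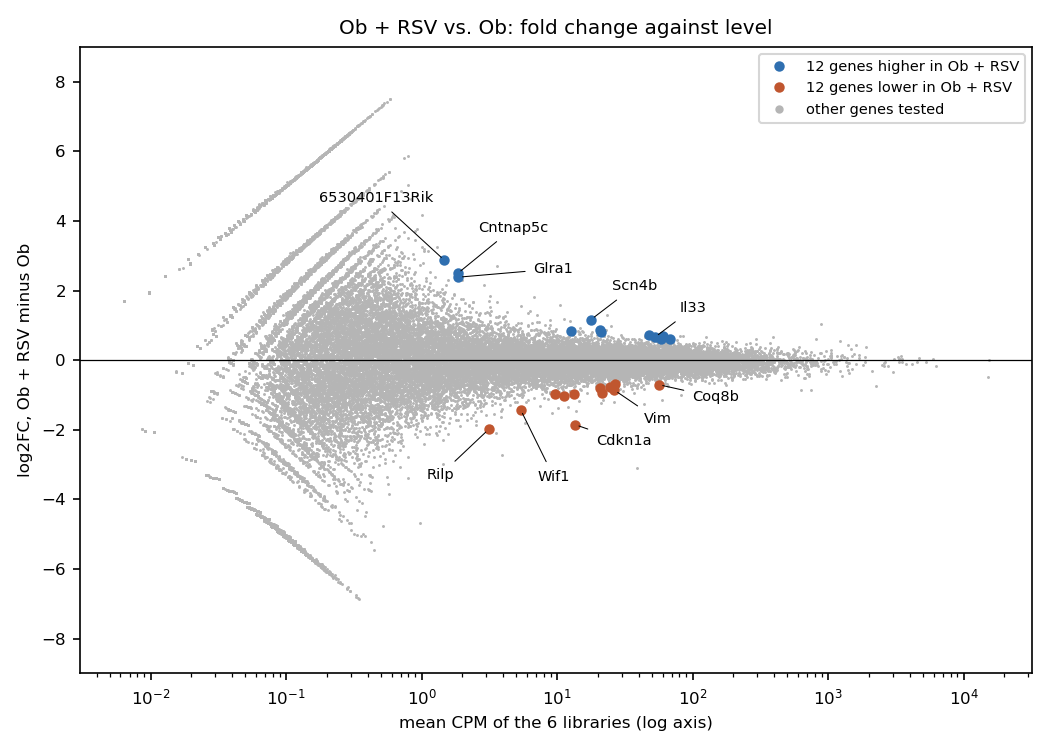
Fitted log2FC of every tested gene, Ob + RSV minus Ob, against the mean CPM of the 6 libraries on a log axis. Grey points are all genes, blue and orange points are the 12 genes in each direction with the smallest p among genes of at least 1 CPM whose libraries do not overlap, and the spread of the grey points narrows as the level increases.

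Among genes with a mean of at least 1 CPM and no overlap between the libraries, 12 were taken by the smallest p on the higher side, and where leaving out 1 library brought a printed log2FC closer to 0 by over 1.5 times, the value without that library is given too. This was not done for H2-D1, Nr3c1, Rsph1, Spag16 and Tekt2. Glra1, a subunit of the glycine receptor, had 0.103, 0.770 and 0.894 CPM in Ob and 1.71, 5.74 and 1.999 CPM in Ob + RSV, a log2FC of 2.39 (SE 0.74). All 3 Ob + RSV values lay above the 3 Ob values, which the rule required of each of these genes, and the highest was in replicate 2. Scn4b, an auxiliary subunit of voltage-gated sodium channels, had 12.2, 11.8 and 8.18 CPM in Ob and 19.1, 18.01 and 37.7 CPM in Ob + RSV, with a log2FC of 1.17 (SE 0.37), or 0.75 without Ob + RSV replicate 3. Syt2, a calcium sensor of fast transmitter release, had 46.8, 50.7 and 37.6 CPM in Ob and 57.4, 65.4 and 104 CPM in Ob + RSV, with a log2FC of 0.70 (SE 0.24), or 0.41 without Ob + RSV replicate 3. For both genes Ob + RSV replicate 3 was the highest library, and by the rule the lowest Ob + RSV value was above the highest Ob value. Map6d1, a protein that stabilizes microtubules, had 12.1, 15.4 and 15.5 CPM in Ob and 22.2, 32.8 and 25.99 CPM in Ob + RSV and a log2FC of 0.87 (SE 0.27). Cntnap5c, of the contactin-associated protein family, had 0, 1.04 and 0.575 CPM in Ob and 1.71, 4.32 and 3.41 CPM in Ob + RSV and a log2FC of 2.49 (SE 0.80). In Cntnap5c 1 Ob library had no read. Caln1, a neuronal calcium-binding protein, had 23.7, 36.96 and 45.7 CPM in Ob and 48.6, 49.3 and 82.7 CPM in Ob + RSV, a log2FC of 0.74 (SE 0.25), or 0.45 without Ob + RSV replicate 3.

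Among the other higher genes, Il33 and Adamts4 are both known from oligodendrocytes. Il33 encodes an alarmin cytokine stored in nuclei, and it had 44.3, 34.9 and 41.4 CPM in Ob and 59.3, 54.4 and 82.1 CPM in Ob + RSV, a log2FC of 0.66 (SE 0.24). Adamts4, a protease of the extracellular matrix, had 12.98, 15.3 and 17.3 CPM in Ob and 22.5, 28.8 and 30.4 CPM in Ob + RSV, a log2FC of 0.80 (SE 0.25). In both the groups were separate, because the rule required it, with the Ob + RSV values close to each other except for Il33 in replicate 3. Prr5l, a component of mTORC2, had a log2FC of 0.84 (SE 0.29), Plcxd2, a phospholipase-like protein, one of 0.62 (SE 0.22), and Usp31, a ubiquitin protease, one of 0.62 (SE 0.22). The remaining gene of the 12, 6530401F13Rik, had 0.361, 0.330 and 0.319 CPM in Ob and 1.10, 5.79 and 0.941 CPM in Ob + RSV, so that replicate 2 held most of its group. With 1 library left out, the log2FC closest to 0 was 1.67 for Glra1 and 1.58 for 6530401F13Rik.

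On the lower side, the smallest p of all genes belonged to Cdkn1a, the p21 inhibitor of the cell cycle, which is also induced by p53 and by glucocorticoids. It had 45.7, 10.9 and 6.45 CPM in Ob and 6.24, 6.11 and 5.94 CPM in Ob + RSV, a log2FC of −1.85 (SE 0.47). The 3 Ob + RSV values were nearly equal, whereas Ob replicate 1 was far above the other Ob libraries, and without that library the log2FC was −0.53. Vim, the intermediate filament vimentin of ependymal cells, tanycytes, vessels and reactive astrocytes, had 29.5, 41.7 and 30.1 CPM in Ob and 23.3, 18.5 and 15.4 CPM in Ob + RSV, a log2FC of −0.86 (SE 0.24). Col5a3, a chain of collagen V, had 12.01, 22.3 and 17.8 CPM in Ob and 7.19, 8.78 and 11.6 CPM in Ob + RSV, a log2FC of −0.96 (SE 0.29). Neither gene overlapped between the groups, because the rule required it. With 1 library left out Vim was never closer to 0 than −0.66 and Col5a3 never closer than −0.71, which the choice by p favors.

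Several of the 12 lower genes had tight replicates in both groups. Dxo, an enzyme that removes incomplete RNA caps, had 32.8, 31.1 and 28.1 CPM in Ob and 19.1, 18.1 and 17.9 CPM in Ob + RSV, a log2FC of −0.78 (SE 0.23). Tep1, a component of telomerase and of vault particles, had 12.5, 12.1 and 13.7 CPM in Ob and 6.01, 6.25 and 7.64 CPM in Ob + RSV, a log2FC of −0.98 (SE 0.30). Coq8b, a kinase-like protein of coenzyme Q synthesis, had 66.00, 72.5 and 68.4 CPM in Ob and 46.7, 38.7 and 44.7 CPM in Ob + RSV, a log2FC of −0.70 (SE 0.23). In these 3 genes the gap between the groups was wider than the range within either group. Rilp, which links Rab7 on late endosomes and lysosomes to dynein, had 7.32, 3.96 and 3.64 CPM in Ob and 1.48, 1.15 and 1.23 CPM in Ob + RSV, a log2FC of −1.99 (SE 0.55). Wif1, an inhibitor of Wnt ligands, had 7.27, 7.81 and 8.37 CPM in Ob and 4.15, 3.86 and 0.823 CPM in Ob + RSV, a log2FC of −1.42 (SE 0.45), with its lowest value in Ob + RSV replicate 3. Nudt14, a hydrolase of UDP-glucose, had a log2FC of −1.03 (SE 0.33) with its highest value in Ob replicate 1, and −0.59 without that library. Mroh7, Togaram2, a microtubule protein of cilia, and Tns2, a focal adhesion protein, had a log2FC of −0.95 (SE 0.28), −0.79 (SE 0.24) and −0.68 (SE 0.23). None of the 24 genes passed adjustment.

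**Figure D2:**
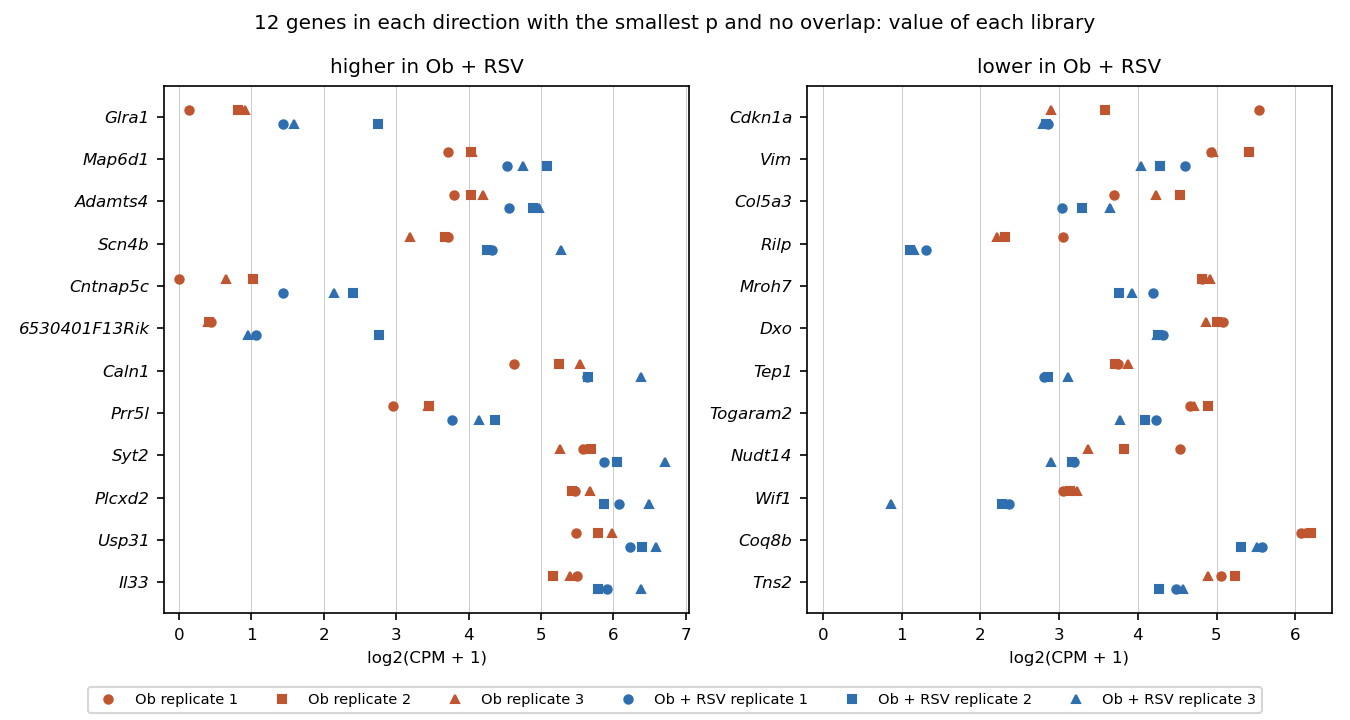
Level of the 12 higher and the 12 lower genes in each library as log2(CPM + 1), Ob in orange above and Ob + RSV in blue below each gene's line, with 1 symbol per replicate. The groups are apart in every gene because the rule required it, and Ob replicate 1 of Cdkn1a and Ob + RSV replicate 2 of 6530401F13Rik lie far from their groups.

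Across gene groups, 42 lists of 959 genes were described, of which 944 were tested. The median log2FC over all genes tested was 0.00, so a list's median can be read against 0. The lists furthest below it with at least 20 members were the genes of MHC class I and the interferon response and those of motile cilia. Among lists of that size, potassium channels and myelin genes lay furthest above it. No member of any list passed the adjusted test.

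**Figure D3:**
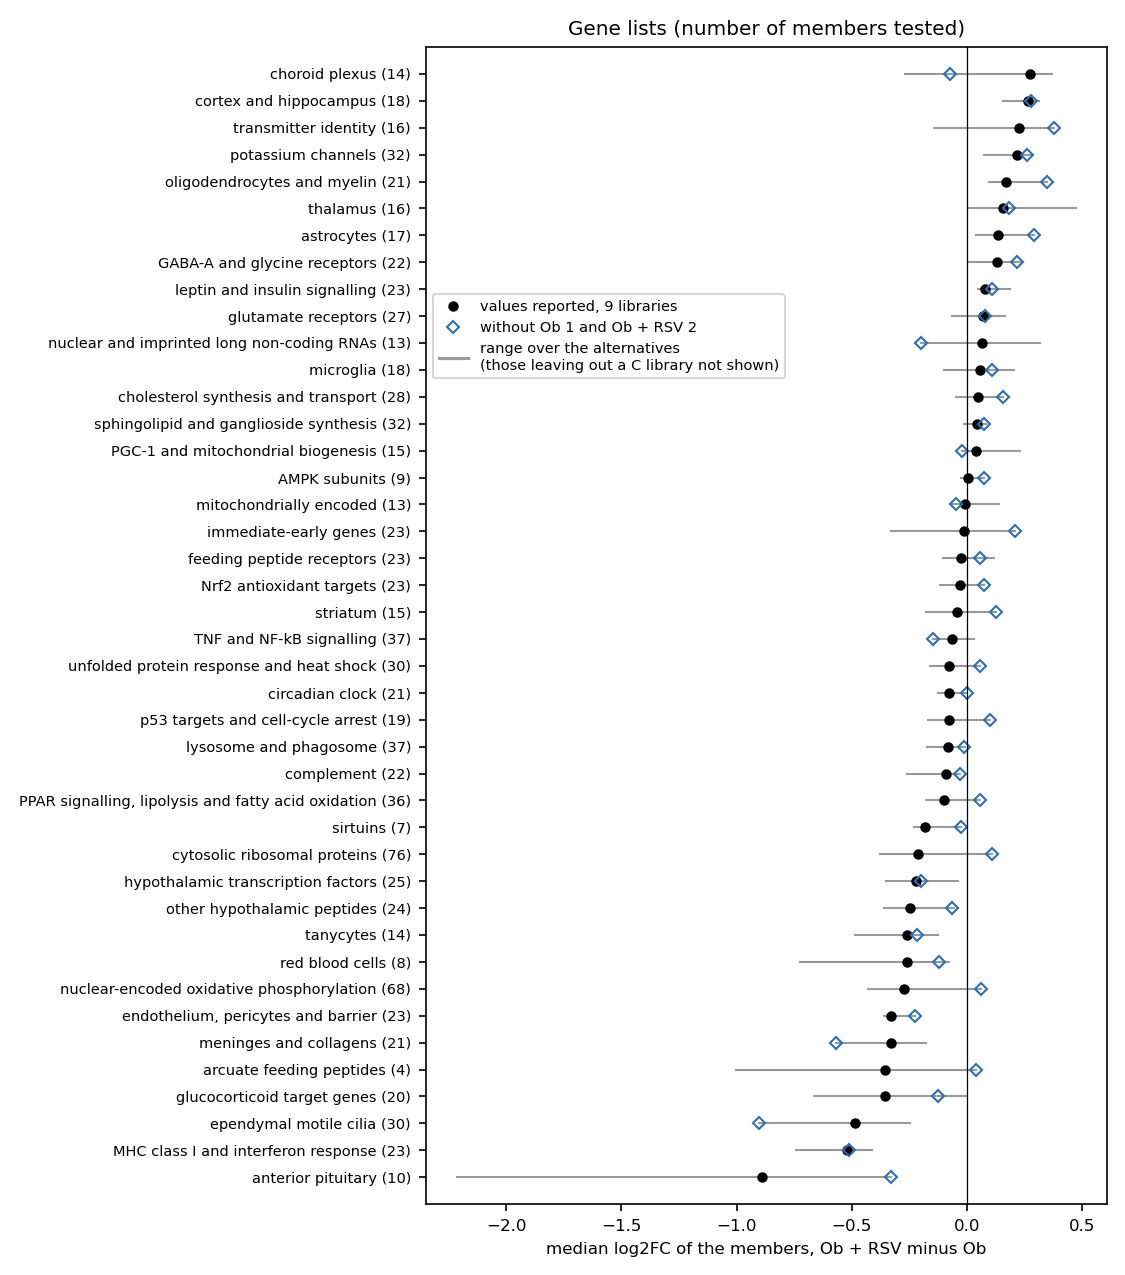
Median log2FC of the members of each of the 42 lists, Ob + RSV minus Ob, with the number of tested members in parentheses. Black points are the values reported here, open diamonds are those without Ob replicate 1 and Ob + RSV replicate 2, and grey lines span the alternatives other than those leaving out a C library. Oxidative phosphorylation and ribosomal protein genes move across 0 along their lines, while the interferon, cilia and myelin lists stay on their side.

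MHC class I molecules present peptides on the cell surface, and they are induced by interferons together with the proteasome subunits and TAP transporters that make and carry the peptides. Of 23 such genes, 21 had a lower fitted level in Ob + RSV and 2 a higher one, with a median log2FC of −0.52. An unadjusted p under 0.05 was reached by 5 members (21.7%, against 3.16% of all genes), all lower. The libraries did not overlap for 7 (30.4%, against 6.68%), all lower as well. H2-K1, a class I heavy chain, had 34.6, 45.05 and 36.4 CPM in Ob and 33.3, 17.7 and 19.8 CPM in Ob + RSV, a log2FC of −0.74 (SE 0.25). H2-D1, the other classical heavy chain of this strain, had 80.2, 85.3 and 61.6 CPM in Ob and 76.8, 39.6 and 45.5 CPM in Ob + RSV, a log2FC of −0.52 (SE 0.24). In both, Ob + RSV replicates 2 and 3 were well below Ob, while replicate 1 lay just under the lowest Ob value for H2-K1 and inside the Ob range for H2-D1. Tap1, a subunit of the peptide transporter, had 9.58, 8.09 and 7.60 CPM in Ob and 6.77, 1.01 and 3.76 CPM in Ob + RSV, a log2FC of −1.14 (SE 0.49), or −0.67 without Ob + RSV replicate 2. Ifitm3, a membrane protein that blocks viral entry, had 6.60, 8.03 and 7.03 CPM in Ob and 4.49, 3.72 and 3.29 CPM in Ob + RSV, a log2FC of −0.94 (SE 0.37), and its groups were well apart. Ifi27, an interferon-induced membrane protein, had 63.6, 48.1 and 35.00 CPM in Ob and 36.6, 27.02 and 23.4 CPM in Ob + RSV, a log2FC of −0.79 (SE 0.25), or −0.52 without Ob replicate 1, and Ob + RSV replicate 1 overlapped with Ob replicate 3.

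The remaining members without overlap were named after their values were seen. They were Ifit1, an RNA-binding antiviral protein, Irf1, a transcription factor of the interferon response, Usp18, a negative regulator of the interferon receptor, and Psmb9, an immunoproteasome subunit. Ifit1 had 4.69, 5.55 and 4.85 CPM in Ob and 3.77, 0.459 and 2.94 CPM in Ob + RSV. Irf1 had 8.81, 7.59 and 9.01 CPM in Ob and 5.90, 6.66 and 4.41 CPM in Ob + RSV. All Ob + RSV values of both genes were below the lowest Ob value. The mean deviation of the list from its level over the 6 libraries, on log2(CPM + 1), was 0.05, 0.42 and 0.17 for Ob and 0.06, −0.39 and −0.31 for Ob + RSV. Ob + RSV replicate 1 thus lay among the Ob libraries on this measure. Its summed level was 385, 433 and 368 CPM in Ob and 348, 278 and 273 CPM in Ob + RSV, with no overlap. The list's median stayed below 0 under every alternative, from −0.74 to −0.41, and was −0.51 without Ob replicate 1 and Ob + RSV replicate 2.

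Cell types that carry much of this expression were measured beside it. Microglia markers had 10 higher and 8 lower members and a summed level of 255 to 381 CPM in Ob and 308 to 428 CPM in Ob + RSV. Endothelium, pericyte and barrier markers had 21 of 23 members lower, a median log2FC of −0.33 and a summed level of 483 to 506 CPM in Ob and 404 to 434 CPM in Ob + RSV. The vessel markers were thus lower on the summed level without overlap, as the interferon genes were, whereas the microglia markers overlapped. The part of either in the interferon values was not tested. In the C mice, on standard diet, the summed level of the interferon list was 288, 282 and 323 CPM, below the 3 Ob libraries and among the Ob + RSV libraries. H2-K1 had the same order with 22.3, 28.6 and 24.6 CPM in C, but Ifitm3 had 7.88, 9.67 and 6.95 CPM, above all Ob + RSV values. The cilia list summed to 394, 406 and 437 CPM in C, 242, 442 and 396 CPM in Ob and 230, 330 and 292 CPM in Ob + RSV. There C lay above all Ob + RSV libraries.

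The promoter of Ifit1 is shown because interferon acts through the interferon-stimulated response element, here searched as the letters GAAA, any 2 bases and GAAA again, on both strands in the 250 bases before the start of each gene (RefSeq, GRCm38.p6). Those bases of Ifit1 are chr19:34640639-34640888 on the plus strand, 5′ to 3′, with the matches in capitals.
Ifit1: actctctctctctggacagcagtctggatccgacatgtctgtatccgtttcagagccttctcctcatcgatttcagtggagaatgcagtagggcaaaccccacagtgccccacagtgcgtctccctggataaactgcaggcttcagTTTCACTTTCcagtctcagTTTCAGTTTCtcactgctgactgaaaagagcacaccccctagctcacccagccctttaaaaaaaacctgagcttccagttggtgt
The 2 matches begin 104 and 85 bases before the start, both as the reverse complement of the search letters. Of the list's 23 genes, 18 have a window in the RefSeq table and 8 of these hold a match. Counted by window, such letters occur in 8 of the list's 22 windows (36.4%) and in 2.98% of all 32851 windows. In the cilia list they occur in 0 of 26 genes. The 8 genes were B2m, Bst2, Ifit1, Ifit3, Isg15, Oas1a, Rsad2 and Stat2, and Ifit1 was the 1 among them without overlap between the groups. A match describes these letters and is no measure of binding.

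Motile cilia beat on the ependymal cells that line the ventricle, and their axonemes are built of dynein arms, radial spokes and tektins. Of 30 cilia genes tested, 26 were lower and 4 higher in the fit, with a median log2FC of −0.48. Here 8 (26.7%, against 3.16% of all genes) had an unadjusted p under 0.05 and 4 (13.3%, against 6.68%) did not overlap, all of them lower. Dnah11, a heavy chain of outer arm dynein, had 1.80, 6.33 and 7.09 CPM in Ob and 0.685, 2.07 and 1.41 CPM in Ob + RSV, a log2FC of −1.90 (SE 0.52). Tmem212, a membrane protein of ciliated cells, had 1.60, 10.8 and 4.47 CPM in Ob and 0.989, 0.368 and 2.82 CPM in Ob + RSV, a log2FC of −2.08 (SE 0.60), or −1.13 without Ob replicate 2. Ob replicates 2 and 3 were above Ob + RSV in both genes, and Ob replicate 1 lay within the range of Ob + RSV. Tekt4, a tektin of the axoneme, had 16.5, 8.20 and 2.17 CPM in Ob and 3.39, 1.70 and 2.94 CPM in Ob + RSV and a log2FC of −1.80 (SE 0.52), or −0.98 without Ob replicate 1, with its highest value in Ob replicate 1 instead. Ttc21a, a component of ciliary transport, had 3.40, 9.02 and 9.71 CPM in Ob and 1.37, 4.92 and 4.76 CPM in Ob + RSV, a log2FC of −1.05 (SE 0.42), or −0.65 without Ob + RSV replicate 1.

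The 4 members without overlap were Rsph1, a radial spoke protein, Spag16, of the central apparatus, Cfap126 and Tekt2, and they are given after their values were seen. Rsph1 had 14.4, 16.6 and 12.7 CPM in Ob and 9.02, 8.55 and 8.996 CPM in Ob + RSV, a log2FC of −0.76 (SE 0.31). Spag16 had 2.01, 5.33 and 2.56 CPM in Ob and 1.22, 0 and 1.88 CPM in Ob + RSV, a log2FC of −1.71 (SE 0.77) with 1 Ob + RSV library at 0 reads. Tekt2, another tektin, had 10.8, 9.52 and 10.2 CPM in Ob and 6.81, 8.68 and 8.82 CPM in Ob + RSV, a log2FC of −0.37 (SE 0.33). In each of the 3 genes all Ob + RSV values lay below the lowest Ob value. The mean deviation of the whole list was −0.50, 0.66 and 0.40 for Ob and −0.45, −0.09 and −0.02 for Ob + RSV. Ob replicate 1 was thus the lowest of the 6 libraries, and without it the median log2FC was −0.75. Without Ob replicate 2 it was −0.25, the value closest to 0 among the alternatives. Tanycyte markers, of the non-ciliated cells of the same wall, had 11 of 14 members lower and a median of −0.26, with a summed level of 200.3, 254 and 238 CPM in Ob and 243, 159 and 155 CPM in Ob + RSV. How much ventricular wall each dissection held was not tested.

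The promoters of Spag16 and Tekt2 are shown because both genes were lower without overlap and hold the letters GTTGCC, a half-site of the X-box that RFX factors of ciliated cells recognize. The windows are chr1:69826720-69826969 on the plus strand and chr4:126325689-126325938 on the minus strand (RefSeq, GRCm38.p6), each written 5′ to 3′ towards the start, with matches on either strand in capitals.
Spag16: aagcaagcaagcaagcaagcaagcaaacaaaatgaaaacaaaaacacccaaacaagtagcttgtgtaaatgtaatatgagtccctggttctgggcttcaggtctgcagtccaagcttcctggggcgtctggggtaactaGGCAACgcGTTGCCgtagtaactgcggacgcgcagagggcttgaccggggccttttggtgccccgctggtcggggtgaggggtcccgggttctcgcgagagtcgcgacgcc
Tekt2: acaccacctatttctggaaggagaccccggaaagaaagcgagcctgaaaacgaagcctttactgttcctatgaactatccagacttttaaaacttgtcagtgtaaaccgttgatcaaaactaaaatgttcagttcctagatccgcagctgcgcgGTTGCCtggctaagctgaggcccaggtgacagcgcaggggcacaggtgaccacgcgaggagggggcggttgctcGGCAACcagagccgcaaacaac
In Spag16 the matches begin 111 and 103 bases before the start, in opposite orientation to each other. In Tekt2 they begin 96 and 22 bases before it. Of 32 cilia genes, 26 have a window, and 9 of these hold the half-site in at least 1 window. Over all windows the share was 10.4%, over the 31 windows of the cilia genes 32.3% and over the 22 windows of the interferon list 18.2%. Among the 9, the log2FC ran from −1.71 in Spag16 to 0.14 in Hydin.

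Myelin is made by oligodendrocytes, whose precursors carry Pdgfra. Of 21 oligodendrocyte genes, 18 were higher and 3 lower in the fit, with a median of 0.17. In 5 (23.8%, against 6.68% of all genes) the libraries did not overlap, all higher, and 2 (9.52%, against 3.16%) had an unadjusted p under 0.05. Ugt8a, the galactosyltransferase of the main myelin lipids, had 32.5, 27.4 and 33.5 CPM in Ob and 37.1, 51.05 and 58.2 CPM in Ob + RSV, a log2FC of 0.61 (SE 0.23). Mal, a proteolipid of compact myelin, had 169.8, 147 and 141 CPM in Ob and 194, 188 and 239.9 CPM in Ob + RSV, a log2FC of 0.40 (SE 0.22). Both genes were higher in each Ob + RSV library than in any Ob library. Ermn, a cytoskeletal protein of mature oligodendrocytes, had 36.6, 34.5 and 52.7 CPM in Ob and 40.97, 57.2 and 83.8 CPM in Ob + RSV, a log2FC of 0.52 (SE 0.23), or 0.22 without Ob + RSV replicate 3, with an overlap of Ob replicate 3 and Ob + RSV replicate 1. Mog, a glycoprotein of the outer myelin layer, had 65.3, 46.8 and 50.4 CPM in Ob and 70.5, 86.7 and 60.98 CPM in Ob + RSV, a log2FC of 0.38 (SE 0.22), and overlapped too. Fa2h, which hydroxylates the fatty acids of myelin lipids, Pdgfra and Mobp were the other members without overlap, the last 2 named after their values were seen. Pdgfra had 37.98, 41.7 and 41.97 CPM in Ob and 50.1, 57.7 and 54.9 CPM in Ob + RSV. The mean deviation of the list was −0.03, −0.15 and −0.21 for Ob and 0.13, 0.11 and 0.14 for Ob + RSV, which did not overlap, and the summed level was 7752, 7339 and 7783 CPM in Ob and 9626, 8354 and 8789 CPM in Ob + RSV. Over the alternatives the median ran from 0.10 to 0.35.

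Collagens and other matrix genes come mainly from meninges and from the walls of vessels. Of 21 genes, 17 were lower in the fit (median log2FC −0.33). An unadjusted p under 0.05 was reached by 4 (19.05%, against 3.16% of all genes). The libraries did not overlap for 4 (19.05%, against 6.68%). All of these were lower. Col18a1, the precursor of endostatin in basement membranes, had 35.2, 38.7 and 45.1 CPM in Ob and 21.9, 27.7 and 26.6 CPM in Ob + RSV, a log2FC of −0.68 (SE 0.25). Col6a1, a chain of collagen VI, had 22.4, 24.1 and 33.2 CPM in Ob and 13.6, 19.3 and 18.9 CPM in Ob + RSV, a log2FC of −0.65 (SE 0.30). The groups did not overlap in either gene. Col5a2 had 5.87, 12.1 and 13.7 CPM in Ob and 5.59, 7.12 and 5.82 CPM in Ob + RSV, a log2FC of −0.80 (SE 0.37), with Ob replicate 1 inside the range of Ob + RSV. Fn1, fibronectin, was the other member without overlap and was named after its values were seen, at 11.3, 15.7 and 18.5 CPM in Ob and 9.24, 7.95 and 10.9 CPM in Ob + RSV. Of the vessel genes, Mfsd2a, a lipid transporter of the blood-brain barrier, had 40.9, 31.5 and 12.01 CPM in Ob and 19.7, 12.04 and 16.1 CPM in Ob + RSV, a log2FC of −0.87 (SE 0.36), or −0.47 without Ob replicate 1, and Slc2a1, the glucose transporter of the barrier, 102, 97.3 and 63.7 CPM in Ob and 70.95, 57.2 and 71.9 CPM in Ob + RSV, a log2FC of −0.44 (SE 0.24), or −0.29 without Ob replicate 1. Both overlapped, as did all 23 genes of that list. Hemoglobin and other red cell genes summed to 352, 230.2 and 366 CPM in Ob and 368, 257 and 226 CPM in Ob + RSV.

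**Figure D4:**
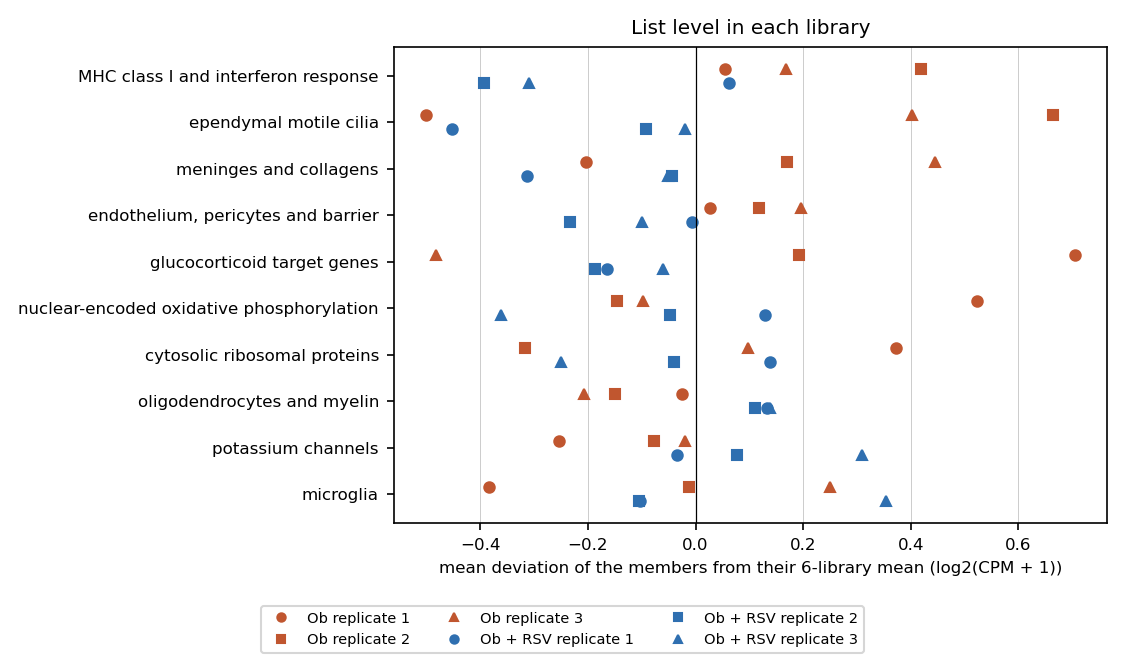
Mean deviation of the members of 10 lists from their mean over the 6 libraries, in log2(CPM + 1), with 1 symbol per replicate, Ob in orange and Ob + RSV in blue. Endothelium and myelin genes separate the groups, microglia genes intermix, and Ob replicate 1 is far to the right for glucocorticoid targets, oxidative phosphorylation and ribosomal proteins.

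For 3 further lists the size of the median rested on Ob replicate 1. Glucocorticoid targets report the hormone signal of stress, and 15 of 20 were lower, with a median of −0.36. At an unadjusted p under 0.05 were 6 (30.0%, against 3.16% of all genes), 5 lower and 1 higher. Fkbp5, a chaperone that restrains the glucocorticoid receptor, had 59.2, 35.7 and 22.9 CPM in Ob and 26.7, 14.8 and 24.1 CPM in Ob + RSV, a log2FC of −0.89 (SE 0.32), or −0.43 without Ob replicate 1. Arrdc2, an arrestin-like protein, had 54.1, 22.7 and 12.6 CPM in Ob and 14.9, 11.8 and 14.99 CPM in Ob + RSV, a log2FC of −1.16 (SE 0.37), or −0.36 without Ob replicate 1, and Hif3a, a hypoxia-inducible factor subunit, 22.4, 13.6 and 4.22 CPM in Ob and 4.11, 3.95 and 6.76 CPM in Ob + RSV, a log2FC of −1.51 (SE 0.58), or −0.90 without Ob replicate 1. In all 3 genes Ob replicate 1 was the highest library and Ob replicate 3 lay within the range of Ob + RSV. Nr3c1, the receptor itself, was higher without overlap, at 37.5, 45.8 and 52.1 CPM in Ob and 59.4, 55.9 and 83.4 CPM in Ob + RSV, a log2FC of 0.52 (SE 0.21), and was named after its values were seen. Without Ob replicate 1 the list's median was −0.01.

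Nuclear-encoded genes of oxidative phosphorylation had 62 of 68 members lower, a median of −0.27 and a summed level of 15106, 9791 and 9282 CPM in Ob and 11402, 9858 and 8219.9 CPM in Ob + RSV. Ob replicate 1 alone stood above the other 5 libraries, and without it 45 members were higher and the median was 0.05. At an unadjusted p under 0.05 were 7 members (10.3%, against 3.16% of all genes), all lower. The libraries did not overlap for 3 members (4.41%, against 6.68% of all genes), 2 higher and 1 lower. The lower one was Ndufb6, a subunit of complex I. It had 84.1, 53.1 and 54.6 CPM in Ob and 51.2, 35.8 and 41.6 CPM in Ob + RSV. Its log2FC was −0.61 (SE 0.24), or −0.32 without Ob replicate 1. Uqcr11, of complex III, had 131, 53.1 and 54.5 CPM in Ob and 72.6, 47.05 and 33.3 CPM in Ob + RSV, with Ob replicate 1 far above the rest. Ribosomal protein genes had 62 of 76 members lower and a median of −0.21, which was 0.08 without Ob replicate 1. The 13 mitochondrially encoded genes had a median of −0.01 and a summed level of 40819 to 56352 CPM in Ob and 42408 to 50689 CPM in Ob + RSV.

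The regulators for which RSV is best known showed no common direction. Of 7 sirtuins, 5 were lower and 2 higher (median −0.18). Sirt1, the deacetylase most often linked to RSV, had 12.7, 15.5 and 25.6 CPM in Ob and 12.4, 18.6 and 27.6 CPM in Ob + RSV, and the ranges of the groups were nearly the same. Sirt6, a nuclear deacetylase, was the 1 member without overlap (14.3%, against 6.68% of all genes). It had 36.5, 22.8 and 26.6 CPM in Ob and 21.3, 14.7 and 21.8 CPM in Ob + RSV. Its log2FC was −0.61 (SE 0.25), or −0.35 without Ob replicate 1, with each Ob + RSV value below each Ob value. AMPK subunits and their kinases had a median of 0.00, with Prkaa1, a catalytic subunit, at 29.01, 32.5 and 43.8 CPM in Ob and 34.3, 32.6 and 56.2 CPM in Ob + RSV and Prkaa2, the other one, at 14.8, 17.4 and 17.5 CPM in Ob and 13.7, 20.8 and 33.99 CPM in Ob + RSV. Both overlapped, and Ob + RSV replicate 3 was the highest library in each.

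Among 15 genes of PGC-1 and mitochondrial biogenesis, 9 were higher (median 0.04). The 2 without overlap (13.3%, against 6.68% of all genes) were the coactivators themselves. Ppargc1a, which encodes PGC-1α, had 28.6, 21.8 and 24.7 CPM in Ob and 29.5, 37.4 and 48.6 CPM in Ob + RSV, a log2FC of 0.58 (SE 0.25). Ppargc1b, which encodes PGC-1β, had 1.49, 1.32 and 2.11 CPM in Ob and 2.32, 7.03 and 3.82 CPM in Ob + RSV, a log2FC of 1.38 (SE 0.55), with its highest value in replicate 2. With 1 library left out the log2FC of Ppargc1a was never below 0.38 and that of Ppargc1b never below 0.89. Tfam, the factor that transcribes and packages mitochondrial DNA, had 32.5, 30.2 and 36.7 CPM in Ob and 35.99, 45.2 and 37.9 CPM in Ob + RSV, which overlapped. Nrf2 antioxidant targets had 14 of 23 members lower and a median of −0.03, and 1 member (4.35%, against 6.68% of all genes) did not overlap. That was Gstp1, a glutathione transferase, at 137, 98.4 and 97.03 CPM in Ob and 93.6, 81.7 and 78.5 CPM in Ob + RSV, a log2FC of −0.43 (SE 0.21), or −0.21 without Ob replicate 1. Targets of p53 had 12 of 19 members lower and a median of −0.08. Besides Cdkn1a, Gadd45g, a stress-inducible growth arrest gene, had 83.3, 39.4 and 20.95 CPM in Ob and 32.3, 30.4 and 14.99 CPM in Ob + RSV, a log2FC of −0.94 (SE 0.33), or −0.23 without Ob replicate 1, again with its highest value in Ob replicate 1.

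Cytokines themselves were near the limit of detection. Tnf had 0, 0 and 0 reads in Ob and 0, 12 and 1 reads in Ob + RSV, Il6 had 0, 0 and 2 reads in Ob and 0, 0 and 6 reads in Ob + RSV, and Il1b and Il10 had 0 reads in all 6 libraries. Of 0 reads in a library the counting error allows up to 3 reads, and such intervals cover counting error only. Ccl2, a chemokine of monocytes, had 9, 4 and 5 reads in Ob and 0, 0 and 3 reads in Ob + RSV, and Tlr4, the receptor of endotoxin and saturated fatty acids, had 12, 7 and 5 reads in Ob and 10, 0 and 9 reads in Ob + RSV. At this number of reads a difference was not detectable for Tnf, Il6 and Tlr4. In the TNF and NF-κB pathway, 21 of 37 genes were lower and 16 higher (median −0.07). Of these, 0 had an unadjusted p under 0.05 (against 3.16% of all genes). The libraries did not overlap for 6 (16.2%, against 6.68%), 4 lower and 2 higher. Socs3, a feedback inhibitor of cytokine and leptin receptors, had 4.74, 5.33 and 4.60 CPM in Ob and 4.45, 1.06 and 0.764 CPM in Ob + RSV, a log2FC of −1.22 (SE 0.60), with Ob + RSV replicate 1 just under the Ob range. Ikbke, a kinase of the NF-κB and interferon pathways, had 1.55, 4.12 and 5.49 CPM in Ob and 1.10, 0.827 and 3.12 CPM in Ob + RSV. Nfkb1, the p50 subunit, had 18.03, 27.3 and 31.4 CPM in Ob and 23.8, 28.1 and 26.7 CPM in Ob + RSV. The last 2 genes overlapped between the groups. Complement genes had 15 of 22 members lower (median −0.09), and 2 did not overlap (9.09%, near the 6.68% of all genes), C4a and C1ra. C4a, a paralog of C4b with which it can share reads, had 7.47, 4.51 and 4.47 CPM in Ob and 1.56, 2.80 and 3.94 CPM in Ob + RSV, a log2FC of −1.05 (SE 0.48), and C1qa, of the microglial C1q, had 55.5, 51.7 and 37.8 CPM in Ob and 53.2, 28.2 and 33.6 CPM in Ob + RSV and overlapped.

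The study named 9 genes for RSV, chosen on these libraries, so that their direction is no independent evidence. Rilp and Ppargc1b are given above. Lta, lymphotoxin alpha, had 36, 10 and 18 reads in Ob and 5, 0 and 7 reads in Ob + RSV. C1ra, a protease of the complement C1 complex, had 20, 24 and 19 reads in Ob and 10, 0 and 5 reads in Ob + RSV. Both were lower in Ob + RSV without overlap, on few reads. Gbgt1, a glycosyltransferase of globoside-type glycolipids, had 0, 10 and 10 reads in Ob and 17, 84 and 32 reads in Ob + RSV, a log2FC of 2.38 (SE 1.01), higher without overlap. Snai1, a transcriptional repressor, had 78, 17 and 5 reads in Ob and 12, 7 and 4 reads in Ob + RSV, and Aqp7, a glycerol channel, had 38, 0 and 5 reads in Ob and 0, 0 and 3 reads in Ob + RSV. Ob replicate 1 held most of the Ob reads of both, and both overlapped. Ccl27a, a chemokine, had 73.8, 61.3 and 56.4 CPM in Ob and 60.8, 54.4 and 40.4 CPM in Ob + RSV under the gene ID that the reference pairs with this symbol. The study listed another gene ID for it, not analysed here, so these values are those of a different ID. M6pr-ps, a pseudogene whose reads can come from its parent gene, had 2.78, 3.74 and 4.54 CPM in Ob and 4.45, 2.66 and 5.29 CPM in Ob + RSV, a log2FC of 0.14 (SE 0.53). Ccl27a and M6pr-ps overlapped as well. The log2FC of M6pr-ps was −0.060 without Ob + RSV replicate 3. The study reported M6pr-ps as lower with RSV, a direction that the fit with all libraries did not show. In lipid pathways, Pnpla2, the main triglyceride lipase, had 63.8, 45.4 and 25.6 CPM in Ob and 35.04, 20.5 and 23.5 CPM in Ob + RSV and overlapped, and Hsd17b7, an enzyme of cholesterol synthesis, had 8.81, 9.46 and 9.52 CPM in Ob and 11.9, 13.1 and 20.1 CPM in Ob + RSV, a log2FC of 0.66 (SE 0.29), or 0.40 without Ob + RSV replicate 3, without overlap.

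The peptides that drive and suppress feeding come from small clusters of neurons within single nuclei. Pomc, the melanocortin precursor that suppresses feeding, had 180.3, 164 and 70.4 CPM in Ob and 166, 56.8 and 2.53 CPM in Ob + RSV. Cartpt, coexpressed with it, had 286, 184 and 107 CPM in Ob and 239.9, 124 and 38.3 CPM in Ob + RSV. Npy, which stimulates feeding, had 29.8, 23.7 and 16.6 CPM in Ob and 33.7, 23.5 and 7.35 CPM in Ob + RSV. For each of the 3, Ob + RSV replicate 1 was in or above the Ob range and replicate 3 was far below all other libraries. Agrp, partner of Npy in the same neurons, had only 6, 0 and 3 reads in Ob and 6, 0 and 16 reads in Ob + RSV. Among the 24 other peptides, 18 were lower (median −0.25).

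Pmch, the melanin-concentrating hormone of the lateral hypothalamus, was the 1 of these 24 other peptides without overlap (4.17%, against 6.68% of all genes). It had 347, 347 and 193 CPM in Ob and 531, 457 and 459.6 CPM in Ob + RSV, a log2FC of 0.66 (SE 0.24), with the 3 Ob + RSV values close together, and it was never below 0.40 with 1 library left out. Hcrt, orexin, from the neighboring lateral neurons, had 56.1, 79.1 and 27.02 CPM in Ob and 108, 86.9 and 39.2 CPM in Ob + RSV and overlapped. Avp, vasopressin, had 809, 1464 and 566 CPM in Ob and 711, 629 and 274 CPM in Ob + RSV, a log2FC of −0.86 (SE 0.31), or −0.38 without Ob replicate 2, and Oxt, oxytocin, had 570.2, 734 and 362 CPM in Ob and 404, 622 and 202 CPM in Ob + RSV. Ob replicate 2 was the highest library for both. Among receptors, Oxtr, the oxytocin receptor, was higher without overlap, at 8.76, 7.37 and 5.88 CPM in Ob and 10.4, 12.5 and 11.1 CPM in Ob + RSV, and Crhr2, a receptor of urocortins, was lower without overlap, at 13.96, 10.1 and 11.9 CPM in Ob and 8.33, 6.52 and 8.58 CPM in Ob + RSV. Calcr, the calcitonin and amylin receptor, had 23.9, 26.6 and 41.3 CPM in Ob and 19.6, 13.6 and 26.99 CPM in Ob + RSV, a log2FC of −0.63 (SE 0.26), or −0.40 without Ob + RSV replicate 2, and overlapped. Lepr, the leptin receptor, had 2, 33 and 70 reads in Ob and 32, 78 and 13 reads in Ob + RSV. Genes of leptin and insulin signaling had a median of 0.08, and 4 of 23 did not overlap (17.4%, against 6.68% of all genes), 3 higher and 1 lower. Gsk3b, a kinase restrained by insulin, was 1 of the higher ones, at 129.9, 131 and 134 CPM in Ob and 156, 191 and 189 CPM in Ob + RSV.

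**Figure D5:**
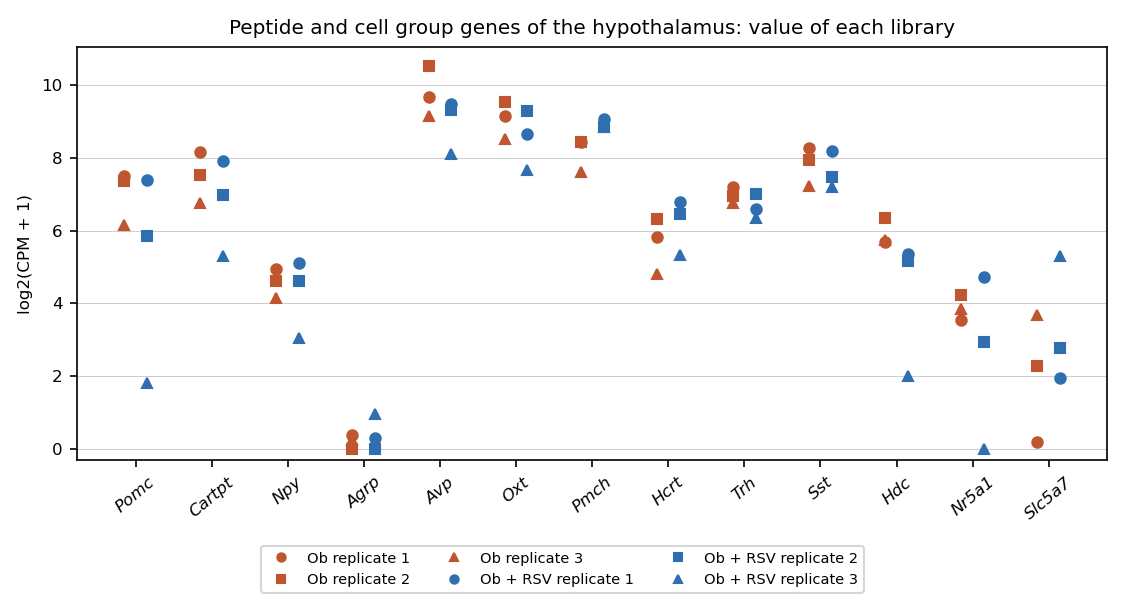
Level of 13 genes of peptides and cell groups in each library as log2(CPM + 1), with 1 symbol per replicate, Ob in orange and Ob + RSV in blue. Pmch and Hdc are the genes with the groups apart, and Ob + RSV replicate 3 is the lowest library for Pomc, Cartpt, Npy, Hdc and Nr5a1 and the highest for Slc5a7.

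Ob + RSV replicate 3 had extreme values of several genes of single hypothalamic nuclei, named after their values were seen. Among the tissue markers it was also the lowest of the 6 libraries for Avp, Oxt, Trh, Sst, Ghrh, Gal, Otp, Isl1 and Nkx2-1. For Nkx2-1 the values were 40.3, 48.8 and 41.5 CPM in Ob and 45.8, 31.2 and 16.8 CPM in Ob + RSV. Hcrt, Crh, Agrp, Pmch and Sim1 were not lowest in it. Sim1, a factor of the paraventricular nucleus, had 7.93, 12.5 and 10.99 CPM in Ob and 7.61, 7.54 and 12.6 CPM in Ob + RSV. Reads in Ob were 462, 397 and 232 for Bsx, a factor of arcuate neurons, against 471, 73 and 8 in Ob + RSV. Prph, a neuronal intermediate filament, had 683, 542 and 357 reads against 617, 294 and 12. Hdc, the histamine-synthesizing enzyme of the tuberomammillary nucleus, had 980, 1456 and 827 reads in Ob and 1057, 762 and 51 reads in Ob + RSV, a log2FC of −1.26 (SE 0.43), and did not overlap in CPM. Nr5a1 had 209, 321 and 211 reads in Ob and 674, 144 and 0 reads in Ob + RSV. In Bsx, Prph, Hdc and Nr5a1 the third Ob + RSV library was the lowest of the 6. Cholinergic genes went the other way in it, with 14, 115 and 318 reads for Chat, the acetylcholine synthase, and 76, 126 and 650 for Slc5a7, the choline transporter, in Ob + RSV. Ob had 7, 84 and 47 reads of Chat and 3, 70 and 184 of Slc5a7. Lhx8, a factor of forebrain cholinergic neurons, had 13, 71 and 256 reads in Ob against 2, 163 and 419 in Ob + RSV. The log2FC of Slc5a7 was 1.58 (SE 0.72) and −0.27 without Ob + RSV replicate 3, and that of Hdc was −0.73 without it. Markers of the anterior pituitary, which hold Pomc too, summed to 213, 197 and 98.4 CPM in Ob and 206, 75.9 and 9.996 CPM in Ob + RSV. Of these sums, Pomc alone held 180.3, 164 and 70.4 CPM in Ob and 166, 56.8 and 2.53 CPM in Ob + RSV. Among the 10 pituitary markers tested, 9 were lower and 1 higher, with a median log2FC of −0.89. The extent of each dissection was not tested and cannot be told apart from a difference between mice.

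Channels and receptors of neurons were described as 3 lists. Of 32 potassium channel genes, 27 were higher (median 0.22). An unadjusted p under 0.05 was reached by 2 (6.25%, against 3.16% of all genes). The libraries did not overlap for 4 (12.5%, against 6.68%). All of these were higher. Kcna2, a channel beside the nodes of myelinated axons, had 147, 135 and 154 CPM in Ob and 186, 182 and 215 CPM in Ob + RSV, a log2FC of 0.38 (SE 0.20), without overlap. Kcna1, its usual partner, had 1.49, 5.78 and 2.68 CPM in Ob and 4.18, 12.7 and 9.88 CPM in Ob + RSV, a log2FC of 1.37 (SE 0.57), and Kcnh7, an Erg-type channel, had 11.9, 11.3 and 27.5 CPM in Ob and 22.2, 23.7 and 37.04 CPM in Ob + RSV, a log2FC of 0.69 (SE 0.29), or 0.43 without Ob + RSV replicate 3. The latter 2 overlapped. The list's median was 0.08 without Ob + RSV replicate 3, the lowest of its alternatives.

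Receptors of the inhibitory transmitters had 18 of 22 members higher (median 0.13), and 0.01 without Ob + RSV replicate 3. Gabrb2, a beta subunit of the GABA-A receptor, had 1.29, 9.24 and 10.03 CPM in Ob and 6.05, 12.4 and 28.9 CPM in Ob + RSV, a log2FC of 1.17 (SE 0.53), or 0.40 without Ob + RSV replicate 3. Its libraries overlapped, and Ob replicate 1 was the lowest. Glutamate receptors had 17 of 27 higher (median 0.07), and the median was −0.07 without Ob + RSV replicate 3. Grin2b, an NMDA receptor subunit, was higher without overlap at 61.6, 57.5 and 63.9 CPM in Ob and 72.9, 121 and 109 CPM in Ob + RSV, a log2FC of 0.69 (SE 0.25), whereas Grm2, a presynaptic metabotropic receptor, had 58.7, 49.1 and 29.5 CPM in Ob and 38.8, 30.6 and 17.3 CPM in Ob + RSV, a log2FC of −0.70 (SE 0.28), or −0.44 without Ob + RSV replicate 3, and overlapped. Gad2, which makes GABA, had 195, 207 and 285 CPM in Ob and 225, 297 and 539 CPM in Ob + RSV, a log2FC of 0.60 (SE 0.26), or 0.16 without Ob + RSV replicate 3, and Slc18a2, the vesicular monoamine transporter, 34.01, 43.01 and 54.1 CPM in Ob and 37.4, 24.5 and 17.3 CPM in Ob + RSV, a log2FC of −0.74 (SE 0.25). Ob + RSV replicate 3 held the highest value of Gad2 and the lowest of Slc18a2. Malat1, an abundant nuclear RNA, had 386, 527 and 785 CPM in Ob and 242, 1908 and 1435 CPM in Ob + RSV, a log2FC of 1.04 (SE 0.37), or 0.53 without Ob + RSV replicate 2, with replicate 1 below and replicates 2 and 3 above all Ob libraries.

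Markers of neighboring brain regions were measured beside these neuronal groups. Genes of cortex and hippocampus had 11 of 18 members higher, a median of 0.26 and a summed level of 816, 903 and 916 CPM in Ob and 1022, 956 and 981 CPM in Ob + RSV, which did not overlap. Thalamus genes had a median of 0.16 and a summed level of 1057 to 1413 CPM in Ob and 1240.3 to 1421 CPM in Ob + RSV, and striatum genes a median of −0.05 and a summed level of 453 to 501 CPM in Ob and 406 to 482 CPM in Ob + RSV. Astrocyte genes had a median of 0.13 and a summed level of 3816 to 6221 CPM in Ob and 4880.2 to 6778 CPM in Ob + RSV. Of these regions and cells, the cortical markers alone were separate between the groups, on the same side as the channel genes, and their part in those values was not tested.

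The remaining lists had medians between −0.22 and 0.27. Choroid plexus genes had a median of 0.27, which turned to −0.27 without Ob + RSV replicate 3 and to −0.02 without Ob replicate 1, with a summed level of 151 to 189.7 CPM in Ob and 181 to 242 CPM in Ob + RSV. Of that, Enpp2, which oligodendrocytes make as well, held 121, 103 and 121 CPM in Ob and 129, 147 and 170.1 CPM in Ob + RSV, whereas Ttr, the defining gene of choroid plexus, had 18, 26 and 3 reads in Ob and 8, 78 and 0 reads in Ob + RSV. Medians were −0.22 for hypothalamic transcription factors, −0.03 for feeding peptide receptors, −0.01 for immediate-early genes, −0.08 for clock genes and −0.08 for the unfolded protein and heat shock responses. For lipid metabolism they were −0.10 for PPAR signaling and fatty acid oxidation, 0.05 for cholesterol, 0.04 for sphingolipids and −0.08 for the lysosome and phagosome. Transmitter identity genes had 0.22 and nuclear and imprinted long non-coding RNAs 0.07. Of the 16 transmitter genes, 5 (31.2%, against 3.16% of all genes) had an unadjusted p under 0.05. These were Gad2, Chat and Slc5a7, which were higher, and Slc18a2 and Hdc, which were lower. Per3, a clock gene, had 43.3, 74.6 and 71.1 CPM in Ob and 42.00, 55.9 and 57.7 CPM in Ob + RSV, and Arc, an activity-induced gene of synapses, 22.7, 17.8 and 14.4 CPM in Ob and 24.7, 29.6 and 21.9 CPM in Ob + RSV. Both overlapped between the groups.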

How the data were processed

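Hypothalamic poly(A) RNA of 9 libraries (C, Ob and Ob + RSV, 3 each) was used. The count values are whole reads per gene as deposited; the authors made them by HISAT2 alignment and featureCounts, and the submitters' processing notes name GRCm39. Rows were matched to symbols by Ensembl ID. Genes with at least 10 reads in total over the 9 libraries were tested with edgeR 4.0.16 in R 4.3.3 (TMM scaling, quasi-likelihood test, Benjamini-Hochberg adjustment, 6 residual degrees of freedom). The thresholds were an adjusted p of 0.05 and a log2FC of 1 in either direction. CPM was computed on library totals without TMM. DESeq2 1.42.0 and limma 3.58.1 (voom with quality weights) were alternatives, besides other scalings, filters, sets of libraries and a replicate block. Tables and plots used Python 3.11.15, pandas 2.3.3 and matplotlib 3.10.9. The fit was tested on simulated data.

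Named genes were the 12 with the smallest p in each direction among genes with a symbol, a mean of at least 1 CPM and no overlap, up to 4 members per list by p, the genes the study named, and tissue markers. Any other gene was named after its values were seen. The comparison, the lists and the rule were chosen with earlier results of these data known. List counts carry no test. Promoter windows came from RefSeq for GRCm38.p6, a build other than that of the files, and no coordinates were exchanged between them. Reads of a library limit its precision by counting error alone, with no molecular identifiers described, and the replicates may hold other error. Low counts were tested with the rest, and their fitted log2FC depends on the prior count where a group is at 0.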

Additional observations from a re-analysis of the deposited data

How the results depend on the processing

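The number of genes past the adjusted threshold was 0 under RLE, upper quartile and total scaling, filterByExpr, 6 and 12 libraries, DESeq2 and voom. It was 11 with a minimum of 1 read (Scand1, Meis2, ENSMUSG00000135935, Hdc, Tmem212, Gm12896, Bsx, Prph, Capn11, Cdkn1a and mt-Tn), where the estimated prior degrees of freedom were infinite, against 24.0 in the values reported, so that a gene's own spread carried no weight. It was 0 to 2 with 1 library left out (Cdkn1a and ENSMUSG00000135935 without Ob replicate 3, Bsx and Malat1 without Ob + RSV replicate 1). At an unadjusted p the 733 genes became 182 with filterByExpr, 1180 with 12 libraries, 286 without Ob replicate 1 and Ob + RSV replicate 2, and from 304 to 1258 on leaving out 1 library, the lowest without Ob + RSV replicate 2 and the highest without Ob + RSV replicate 1. Voom put 26.0% of its unadjusted genes on the higher side, against 58.5%, with 203 higher and 577 lower, and moved the median of all genes to −0.08. The first settings test fewer genes or use other libraries, and the cause of the shift under voom was not tested. Direction was followed only for named genes with a small unadjusted p, the top genes of each direction and the study's key genes for RSV. Most of these were chosen by p or by separate groups on these libraries, which fixes much of their direction. Of these 115 genes, 7 turned in at least 1 alternative. Without Ob replicate 1 and Ob + RSV replicate 2 the log2FC was 0.11 for Gpx4, 0.027 for Uqcr11, 0.058 for Ndufa3, 0.13 for Ndufs6 and 0.25 for Rps21. With 1 library left out it ran from −0.74 to 0.11 for Gpx4, −1.06 to 0.093 for Rps21, −0.27 to 2.88 for Slc5a7 and −0.060 to 0.40 for M6pr-ps. Named genes with a larger p are outside that count, and some of them turned as well. With 1 library left out the log2FC ran from −0.23 to 0.38 for Sirt1 and −0.67 to 0.26 for Npy. For others, such as Stk11 with −0.52 to −0.15, it kept 1 sign. The medians of 20 of 42 lists kept 1 sign. Below 1 CPM the error was too large for most differences to be detectable.

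Replicate numbers are shared by the groups, but no source says that they mark a litter, batch or day. Same-numbered Ob and Ob + RSV libraries correlated at 0.254, 0.0070 and 0.331 in their deviations from the group means. Differently numbered ones correlated at −0.309 to 0.0031, so that every same-numbered pair lay above them, the pair of replicate 2 only just. Pairs with C did not all follow this order. C replicate 1 correlated at −0.025 with Ob replicate 1 and at 0.152 with Ob replicate 2, while C replicate 3 correlated at 0.170 with Ob replicate 3. The source of the difference between same-numbered and other pairs was not tested. Because no source describes pairs, the numbers were not taken as pairs in the values reported. With the replicate block 10 genes passed the threshold (Hdc, Crabp1, Bsx, Scn4b, Gabrb2, Pomc, Prph, Capn11, Cdkn1a and ENSMUSG00000135935) and 436 were at the unadjusted one. The prior degrees of freedom were infinite in this model too.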
